A study of Catharus ustulatus with 19 samples.

Results

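In 37 of the 11727 genes measured in the brains of Swainson's thrushes, every inland bird had a lower value than every coastal bird. The 37 genes were chosen by this separation alone: the highest of the 9 inland values had to lie below the lowest of the 10 coastal values. They are 0.316% of the table; the opposite separation, higher in every inland bird, was found in 59 genes (0.503%). Since the ecotype difference chose the genes, it is described below without a test, and tests are given only for migratory status, the difference of the ecotype gap between statuses, sex and hour of collection. The deposited values are on a log scale whose base is not stated; they were read as log2, and every fold below rests on that reading.

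The tissue was a block of brain with the hypothalamus and the optic chiasma, taken from birds (Catharus ustulatus) held captive for more than a year in constant conditions, except for a day length that was reset each week to follow the natural season. The 4 groups were non-migratory inland (4 birds), migratory inland (5), non-migratory coastal (6) and migratory coastal (4); a further migratory inland bird of the study was not analysed here. All 9 inland birds were males, and 3 of the 10 coastal birds were females, 2 of them non-migratory and 1 migratory. Tissue was collected in August from 4 of 4 non-migratory inland, 1 of 5 migratory inland, 5 of 6 non-migratory coastal and 0 of 4 migratory coastal birds, and from the others in October, between 2.5 and 8.57 hours after lights on. The sources used here do not give the ages of the birds.

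The hypothalamus is known to sense day length and to regulate feeding, energy reserves, reproduction and daily rhythms, all of which change when a songbird prepares to migrate. The inland and coastal forms of this thrush are known to take different routes and to meet and hybridize where their ranges touch. Genes are listed under ENSFALG identifiers, which the table does not pair with names. The 19631 RefSeq genes supplied for the species are not listed under this kind of identifier, and none of the 11727 identifiers matched. No function, chromosome or sequence is therefore given for any member. The labelled tissue could not be checked against marker genes. In a bulk sample, fewer cells of a type and less RNA per cell cannot be told apart. How well the reads of each ecotype mapped to a gene was not tested. Above the lowest ranks the deposited columns were nearly identical in distribution, so there a lower value means a lower place among the genes of that bird. At the lowest ranks the columns differed. For ENSFALG00000004390, rank 2 from the bottom was 21.89 log2 in migratory inland replicate 1 and 22.17 log2 in migratory inland replicate 4. The depth behind each value is unknown.

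The genes differed widely in how far the ecotypes stood apart. The difference between the coastal and the inland mean had a median of 0.70 log2 over the 37 genes and ran from 0.15 to 3.26 log2; over all genes, its size had a median of 0.09 log2. In 20 of the 37 the difference was over 0.5 log2 and in 7 it was over 1 log2, against 214 and 33 of all 11727 genes in the same direction. Measured against the pooled SD of birds within an ecotype, the difference had a median of 3.51 SD and ran from 2.20 to 9.76 SD. The stretch left empty between the highest inland and the lowest coastal bird was mostly narrow, with a median of 0.11 log2. It was at most 0.05 log2 in 11 genes, over 0.25 log2 in 9 and over 0.5 log2 in 3. In 10 genes it was wider than any step between neighbouring birds of the same ecotype, so that the split between ecotypes was the largest break in the ordered values. In the other 27, at least 1 step inside an ecotype was as wide or wider.

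**Figure D1:**
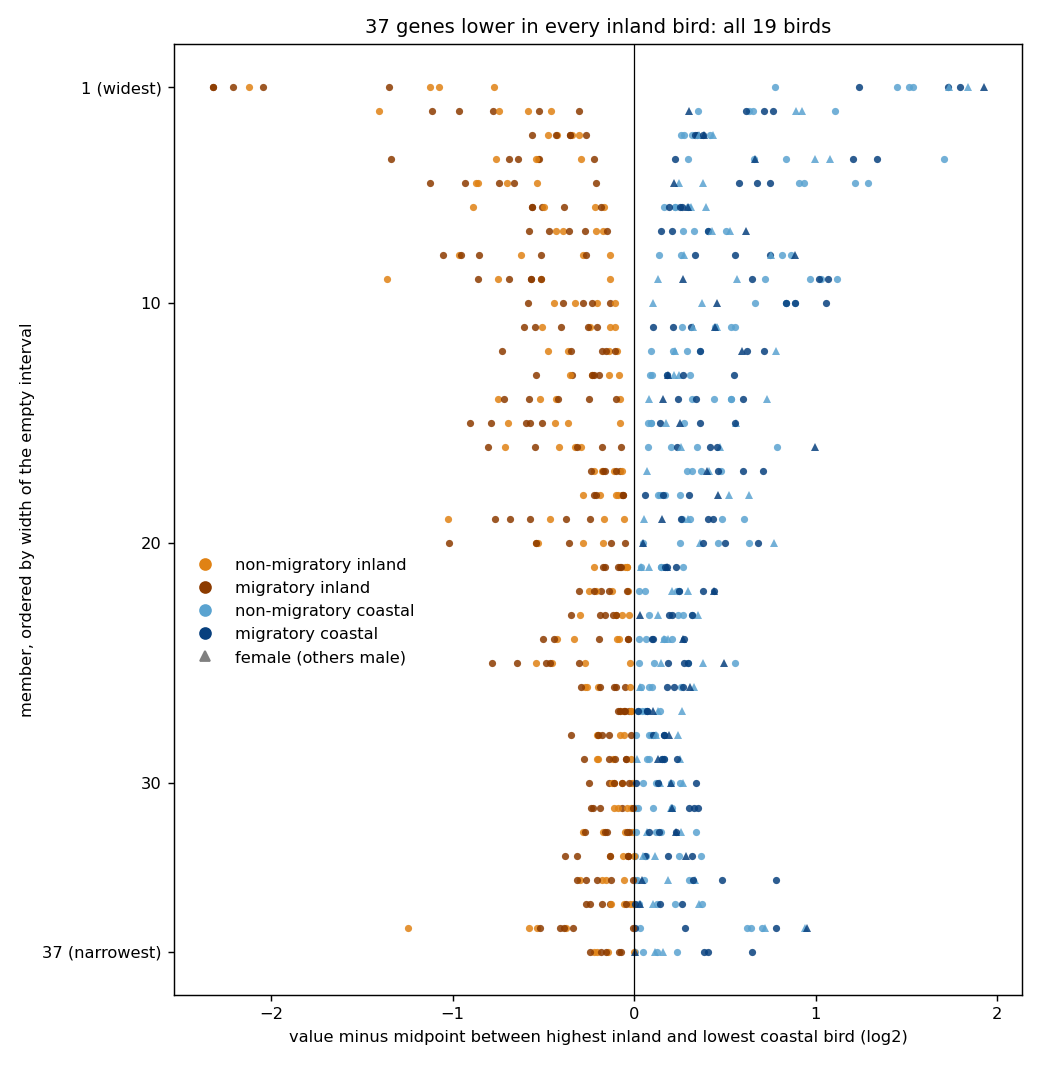
Value of each of the 19 birds (log2) for each of the 37 genes, shifted so that 0 is the midpoint between the highest inland and the lowest coastal bird; genes are ordered from the widest empty interval (top, 1.56 log2) to the narrowest (bottom, 0.0055 log2). Orange and brown points are inland birds, light and dark blue points coastal birds, and triangles are females; the separation at 0 is what chose the genes.

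At the edge of the rule, the narrowest member was ENSFALG00000003704. Its highest inland bird stood at 28.81 and its lowest coastal bird at 28.82 log2, although its coastal birds reached 29.46. Just outside the rule, ENSFALG00000003667 had its highest inland bird at 26.61 log2, above its lowest coastal bird by 0.0031 log2, and a difference of means of 0.43 log2. This gene was chosen after its values were seen: the rule fixed for naming genes gave ENSFALG00000016252, which stood at 35.66 log2 in all 19 birds and so separated nothing. The members at this edge are thus hardly distinct from genes that missed it.

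The widest separation belonged to ENSFALG00000004390, which also had the largest coastal-minus-inland difference of all genes in the table. The 5 migratory inland birds stood at 21.89, 22.00, 22.86, 22.17 and 21.89 log2, and the 4 non-migratory inland birds at 23.44, 23.09, 23.14 and 22.09. The 4 migratory coastal birds stood at 26.01, 25.94, 25.45 and 26.14 log2, and the 6 non-migratory coastal birds at 25.66, 25.73, 25.75, 24.99, 26.05 and 25.95. The 9 inland birds averaged 22.51 log2 (SD 0.62) and the 10 coastal birds 25.77 log2 (SD 0.34), which is 3.26 log2 or 9.58-fold apart, with an empty interval of 1.56 log2. The gene was near the bottom of the table in the inland birds, where it ranked between 2 and 35 from the lowest of 11727 genes. In the coastal birds it ranked between 369 and 1649 from the lowest, still in the lower part of the table.

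ENSFALG00000011951 and ENSFALG00000004473 were also low in inland birds, with means of 23.63 and 23.78 log2, above that of ENSFALG00000004390. They ranked between 7 and 60 and between 7 and 59 from the bottom of the table there. ENSFALG00000011951 stood at 23.62, 23.43, 23.87, 23.28 and 24.09 log2 in migratory inland, and at 23.81, 22.99, 23.94 and 23.65 in non-migratory inland birds. Its coastal values were 25.16, 25.01, 25.11 and 24.70 log2 in migratory, and 24.75, 25.05, 25.50, 25.03, 25.29 and 25.32 in non-migratory birds. The empty interval was 0.61 log2, and the means were 1.46 log2 (2.75-fold) apart. ENSFALG00000004473 stood between 23.06 and 24.18 log2 in inland birds (median 23.86) and between 24.63 and 26.11 in coastal birds (median 25.32). Its coastal birds had the largest SD of any member, 0.46 log2, and both its lowest and its highest coastal value came from males. The means were 1.52 log2 (2.87-fold) apart.

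These 3 genes were the members near the floor of the table in every inland bird, taking the lowest 5% of genes of a bird as near the floor. Over all genes, 68 (0.58%) were near the floor in every inland bird and 62 (0.529%) in every coastal bird. None of the 3 was near the floor in every coastal bird, but each was in at least 1, so at this limit no member was low in all inland and in no coastal bird. For ENSFALG00000004390 the only such coastal bird was non-migratory coastal replicate 4, and its coastal median was at percentile 10.52. The coastal median was at percentile 3.547 for ENSFALG00000011951, which was near the floor in most coastal birds too. For ENSFALG00000004473 it was at percentile 5.387, with several coastal birds near the floor. With the lowest 2% as the limit, ENSFALG00000004390 was the only gene of the table that was near the floor in every inland bird and in no coastal bird, while 2 genes showed the opposite pattern. As the table holds no counts, a value near the floor cannot be read as absence of the transcript. In 30 of the 37 genes no inland bird was in the lowest 5%.

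**Figure D2:**
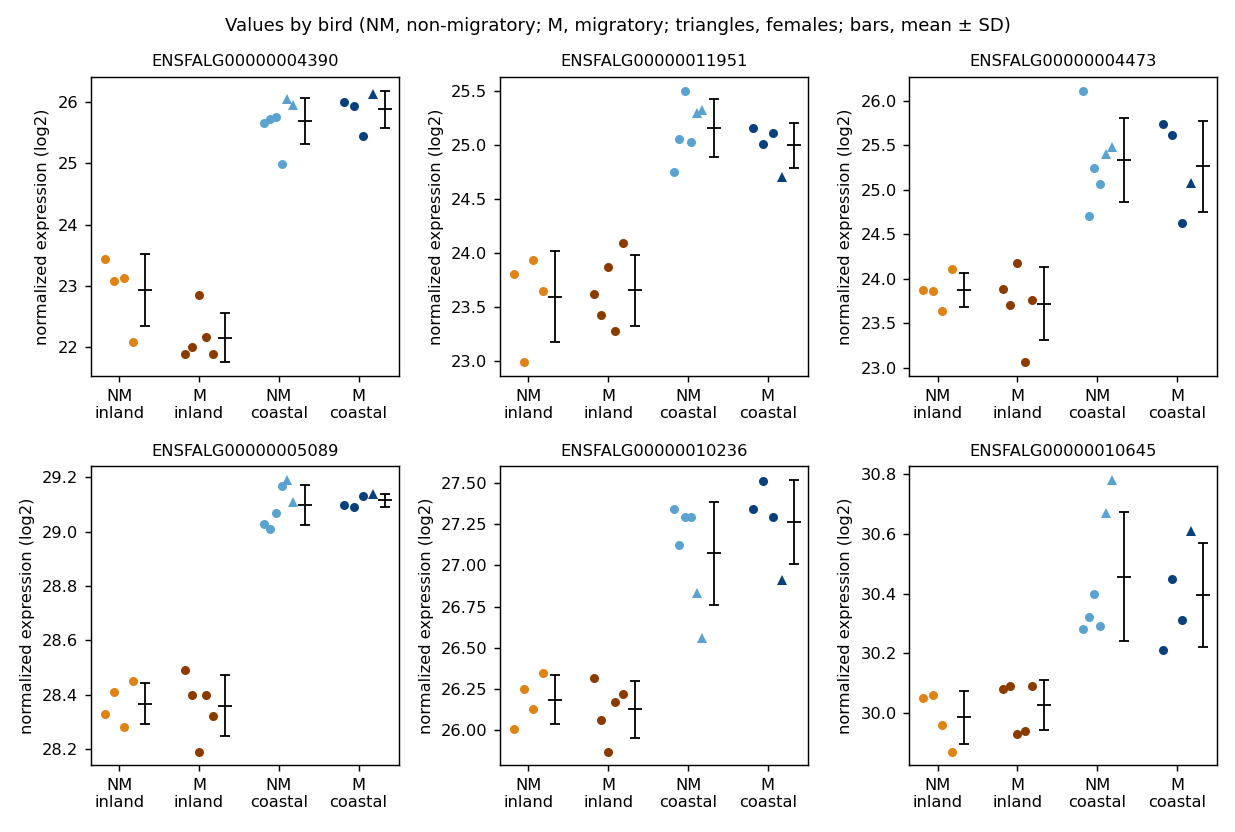
Values by bird (log2) of 6 members in the 4 groups; triangles are females and bars show the mean ± SD of a group. The upper row holds the 3 genes near the floor in inland birds, and the lower row a gene with little spread (ENSFALG00000005089) and the genes with the smallest p-values for sex; all inland birds lie below all coastal birds in each panel.

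By level, the members covered the whole table. Ranked by their mean over the 19 birds, 9 of the 37 lay below the 25th percentile of all genes, 7 between the 25th and 50th, 10 between the 50th and 75th percentile, 5 between the 75th and 90th, and 6 above the 90th. The most highly expressed was ENSFALG00000001874, at 32.42 to 33.18 log2 in inland birds (median 32.74) and 33.23 to 33.76 in coastal birds (median 33.49), a difference of 0.72 log2 (1.65-fold). It ranked above 98.6% of the genes in every bird. The 9 genes below the 25th percentile differed between ecotypes by a median of 1.42 log2 (0.71 to 3.26), the other 28 by a median of 0.43 log2 (0.15 to 1.06). The spread followed the same order: the median SD among inland birds was 0.30 log2 for all genes below the 25th percentile and 0.15 log2 for those above it. Under a rule that asks for separation, genes with more spread need a larger difference to enter.

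Over all levels together, the members varied about as much within each ecotype as other genes of the table. Their SD had a median of 0.15 log2 in inland birds (0.17 over all genes) and 0.16 log2 in coastal birds (0.18 over all genes). For the 28 members of higher level, by the split given above, the median SD was 0.10 log2 (inland) and 0.13 log2 (coastal). All genes of that level had larger medians, 0.15 and 0.16 log2. For the 9 members of lower level the medians were 0.32 and 0.29 log2, against 0.30 log2 in both ecotypes for all genes of that level. A rule that asks for separation favours small spread, so these comparisons are partly set by the rule. The SD was larger in coastal birds in 20 members (54.1%) and in inland birds in 17; over all genes it was larger in coastal birds in 52.9%. More than 2-fold larger SDs were found in coastal birds for 5 members (13.5%, against 7.45% of all genes) and in inland birds for 2 (5.41%, against 3.97%). Only the coastal SD covers females (3 birds), so a sex difference enters that side alone. Of the 5 members with the larger coastal SD, only ENSFALG00000010645 (SD ratio 2.33) was called for sex, higher in females, as given below. ENSFALG00000004311, ENSFALG00000004845, ENSFALG00000003704 and ENSFALG00000011245 were not (limma adjusted p = 0.38, 0.39, 0.52 and 0.87). How much of the coastal spread comes from sex was not tested. The largest SD in inland birds was that of ENSFALG00000004390 (0.62 log2), in which 4 inland birds, 1 migratory and 3 non-migratory, stood at or above 22.86 log2 and the other 5 at or below 22.17.

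The smallest coastal SD, 0.06 log2, belonged to ENSFALG00000005089, named after its values were seen. Its 9 inland birds stood between 28.19 and 28.49 log2 (median 28.40) and its 10 coastal birds between 29.01 and 29.19 (median 29.11). The difference of 0.74 log2 (1.67-fold) was 9.76 times the pooled SD, the largest such ratio among the members. The empty interval of 0.52 log2 was wider than the whole range of either ecotype. In this gene the females did not stand apart from the coastal males.

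**Figure D3:**
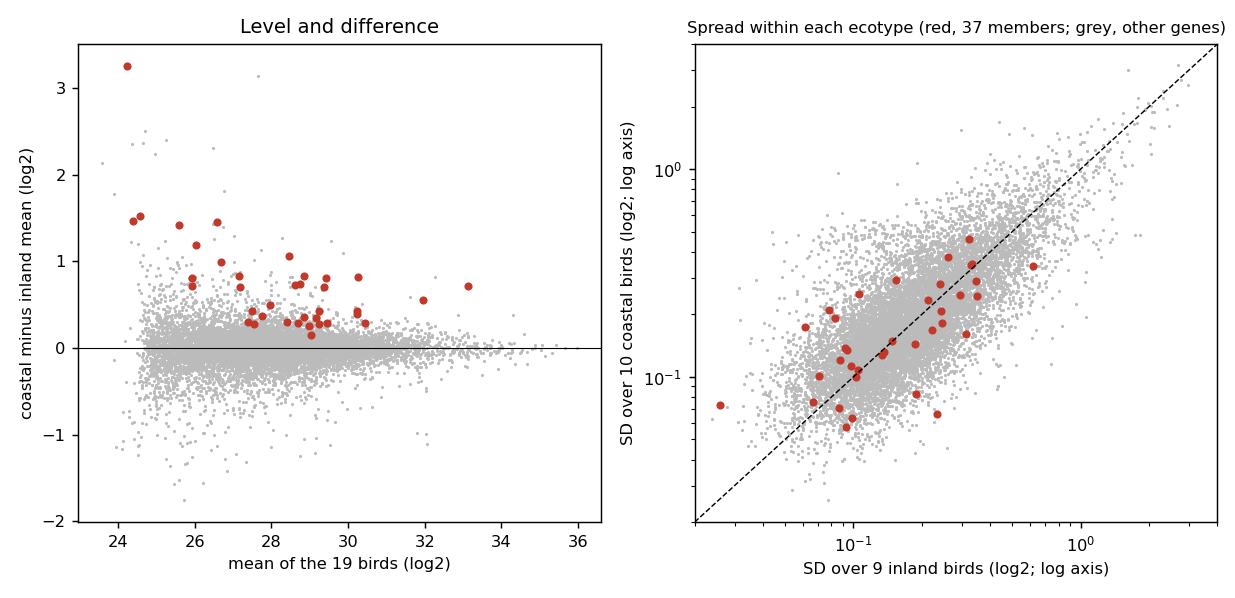
Left, the difference between the coastal and inland means against the mean of the 19 birds (both log2); right, the SD over 10 coastal birds against the SD over 9 inland birds (both log2, log axes, dashed line at equality). Red points are the 37 members and grey points the other genes; the members span the range of levels and lie on both sides of the equality line.

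Within groups, the members were on the median close to uncorrelated. Deviations of the 19 birds from their group means had a median correlation of 0.03 over the 666 pairs of members, beside a median of -0.00037 over pairs of all genes. A correlation above 0.7 was found in 2 pairs of members (0.30%) and in 0.508% of all pairs. These birds share a table whose columns were nearly alike above the lowest ranks, and the correlations are given as a description only. No single bird set the boundary either. The highest inland bird was non-migratory inland replicate 2 in 9 genes (24.3%, against 10.9% of all genes) and replicate 3 in 7 (18.9%, against 13.1%). Each of the 9 inland birds was the highest in at least 1 gene. The lowest coastal bird was non-migratory coastal replicate 1, 2 or 6 in 7 genes each (18.9%). Over all genes these 3 birds were the lowest in 8.95%, 10.9% and 9.3%. Non-migratory coastal replicate 5 was the lowest in none, against 11.6% of all genes.

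The boundary was formed by non-migratory birds somewhat more often in the members than over all genes, which was not tested. The highest inland bird was non-migratory in 24 of the 37 genes (64.9%), against 52.7% of all genes. The lowest coastal bird was non-migratory in 26 (70.3%), against 61.8% of all genes. Both shares cover all genes, whichever ecotype had the lower mean. They were not taken among genes with the lower mean in inland birds, which are more like the members. The gap between the ecotypes, taken as coastal mean minus inland mean, had a median of 0.69 log2 in migratory birds (0.13 to 3.73) and 0.58 log2 in non-migratory birds (0.16 to 2.75). Whether the gap differed between the statuses was tested with the interaction of ecotype and status, fitted by limma (a linear model with shared estimates of spread) over all genes, with sex as a term and p-values adjusted over the whole table (Benjamini-Hochberg). The estimate was a wider gap in migratory birds in 28 members and a narrower one in 9; among the 6007 genes with the lower mean in inland birds it was wider in 62.4%. No member passed an adjusted p of 0.05 with limma (smallest 0.45), nor did any gene of the table (0%). At an unadjusted p under 0.05 there were 4 of the 37 members (limma), all with the wider gap in migratory birds, beside 8.95% of all genes in either direction. The interaction is made of the status shifts within each ecotype, and such shifts make full separation harder. Counts of members for the interaction are therefore partly set by the rule. The 95% interval of the difference between the gaps lay within ± 0.5 log2 in 21 members and within ± 1 log2 in 36, so for the others a difference of that size was within the interval.

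The smallest p-value for a wider gap in migratory birds was that of ENSFALG00000004882. It stood at 28.30, 28.14, 28.13, 28.36 and 28.18 log2 in migratory inland and at 28.67, 28.70, 28.72 and 28.58 in migratory coastal birds. In non-migratory birds it stood at 28.26, 28.35, 28.33 and 28.28 log2 (inland) and at 28.39, 28.38, 28.47, 28.58, 28.57 and 28.58 (coastal). The migratory birds of the ecotypes were 0.22 log2 apart at their nearest, the non-migratory birds 0.03 log2. The gap was 0.45 log2 in migratory and 0.19 log2 in non-migratory birds, and the difference between the gaps was 0.26 ± 0.09 log2 (SE, limma, unadjusted p = 0.012, adjusted p = 0.45).

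In ENSFALG00000004390 the gap was 3.73 log2 in migratory and 2.75 log2 in non-migratory birds, with a difference of 1.01 ± 0.41 log2 (SE, 95% interval 0.16 to 1.87, limma adjusted p = 0.50). The 5 migratory inland birds averaged 22.16 log2 (SD 0.41) and the 4 non-migratory inland birds 22.94 log2 (SD 0.59), with overlapping ranges. The 4 migratory coastal birds averaged 25.89 log2 (SD 0.30) and the 6 non-migratory coastal birds 25.69 log2 (SD 0.37). The larger part of the difference thus lay in the inland birds. There the gene stood between 21.89 and 23.44 log2, at places 2 to 35 from the bottom of the table.

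The smallest p-value for a wider gap in non-migratory birds was that of ENSFALG00000004374, with gaps of 0.84 log2 in migratory and 1.30 log2 in non-migratory birds. The difference was -0.43 ± 0.25 log2 (SE, limma adjusted p = 0.65), and -0.24 log2 without non-migratory inland replicate 1, the lowest bird. Migratory inland birds stood between 27.87 and 28.38 log2 and non-migratory inland birds between 27.14 and 28.01. The coastal birds stood between 28.39 and 29.34 (migratory) and between 28.42 and 29.33 (non-migratory). The ecotypes all but met in this gene: the highest inland bird, migratory inland replicate 5, was 0.0093 log2 below the lowest coastal bird, migratory coastal replicate 1.

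**Figure D4:**
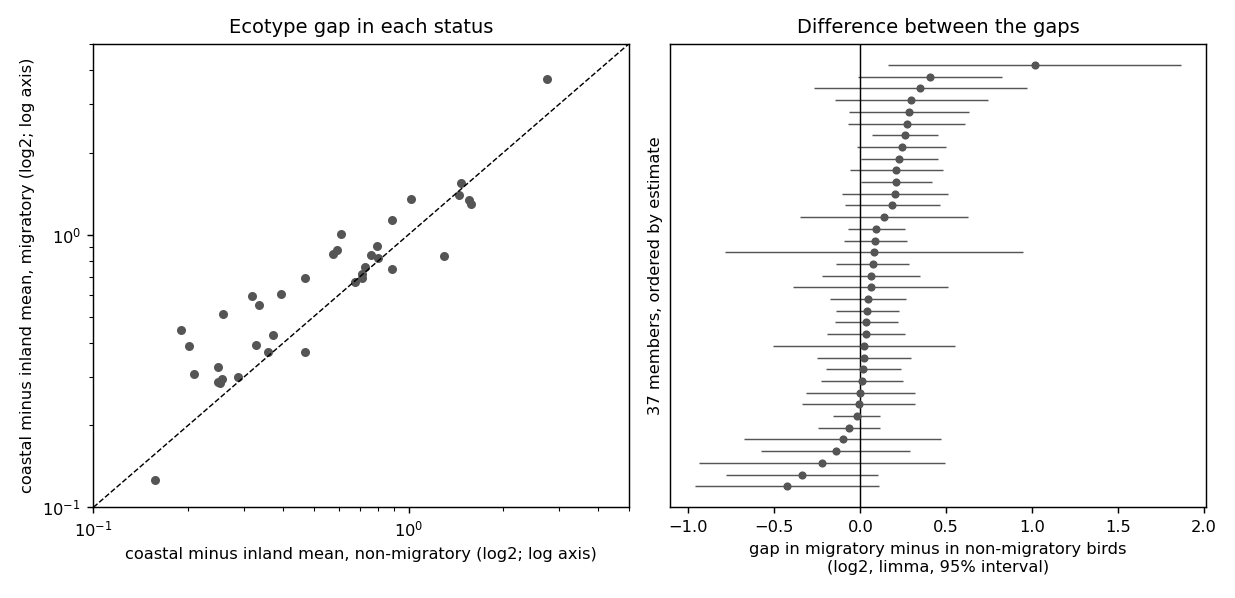
Left, coastal minus inland mean of each of the 37 genes in migratory against non-migratory birds (log2, log axes, dashed line at equality). Right, the difference between these gaps from the model with its 95% interval, ordered by size. Of the 37 estimates, 28 are above 0 and none passed the adjusted threshold. Among all genes with the lower mean in inland birds, 62.4% of the estimates are above 0.

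Migratory status itself was tested next. The rule did not use status, but at a given ecotype difference a status shift within an ecotype makes full separation harder. The rule can thus lower the counts of members for status, here and in the next paragraph. Status and month of collection cannot be told apart except through 2 birds, migratory inland replicate 1 (August) and non-migratory coastal replicate 6 (October). Over both ecotypes no member was called (limma, smallest adjusted p = 0.61) and no gene of the table was (0%); at an unadjusted p under 0.05 there were 0 members, against 8.19% of all genes. The estimates were close to 0, from -0.27 to 0.14 log2, and the 95% interval lay within ± 0.5 log2 in 35 of the 37 members and within ± 1 log2 in all 37. The smallest p-value belonged to ENSFALG00000011228, at -0.16 ± 0.08 log2 in migratory relative to non-migratory birds (SE, limma adjusted p = 0.61). After adjustment for month the estimate was -0.08 ± 0.14 log2 (SE), and after adjustment for collection day -0.03 log2. Its migratory inland birds stood at 26.75, 26.55, 26.90, 26.61 and 26.95 log2 and its non-migratory inland birds at 26.65, 26.91, 27.02 and 27.05. Its migratory coastal birds stood at 27.47, 27.37, 27.26 and 27.60 log2 and its non-migratory coastal birds between 27.42 and 27.71, so the statuses overlapped in both ecotypes.

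Within inland birds no member was called for status (limma, smallest adjusted p = 0.67), and 1 member had an unadjusted p under 0.05, against 6.29% of all genes; 1 gene of the table was called (0.00853%). The estimate was lower in migratory birds in 28 of the 37 members, against 48.9% of all genes, with a median of -0.03 log2. Within coastal birds no member was called (limma, smallest adjusted p = 0.29), as in the whole table (0%). There 6 of the 37 members had an unadjusted p under 0.05 (limma), a larger share than the 11.1% of all genes. Whether these shares differ was not tested. The estimate was higher in migratory coastal birds in 22 members, against 52.8% of all genes, with a median of 0.05 log2. For both directions within an ecotype, the share was taken over all genes. It was not taken among genes with the lower mean in inland birds, which are more like the members. For the interaction that choice mattered, with a wider gap in 62.4% of such genes and in 51.2% of all genes. In none of the 37 genes were the migratory birds of an ecotype fully apart from the non-migratory birds of the same ecotype, which was the case in 1.6% of all genes among inland and in 2.08% among coastal birds.

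Sex was tested because all 3 females were coastal and so could shift only the coastal side of the rule. In birds, males carry a pair of Z chromosomes and females a single Z and a W. Of the 37 members, 3 were called for sex (limma, adjusted p under 0.05), 1 higher and 2 lower in females, beside 3.83% of all genes (0.563% higher, 3.27% lower). At an unadjusted p under 0.05 there were 5 members, against 13.4% of all genes. In 5 members the coastal females did not overlap the coastal males, 2 with higher and 3 with lower females, against 6.56% of all genes. The rule needs every female to lie above all inland birds, so it keeps out genes with low females. These counts of members by direction are therefore partly set by the rule.

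ENSFALG00000010236 was lower in females. The females stood at 26.91, 26.83 and 26.56 log2, between the 7 coastal males (27.12 to 27.51) and the 9 inland males (25.87 to 26.35). The sex difference was -0.53 ± 0.11 log2 (SE, limma adjusted p = 0.0053). Between males alone, the empty interval was 0.77 log2 in place of 0.21. ENSFALG00000009878, the third called gene and outside the rule for naming, had the same order, with females at 26.78, 26.94 and 26.81 log2, coastal males from 27.14 to 27.85 and inland males from 25.44 to 26.35. Its sex difference was -0.66 ± 0.16 log2 (SE, limma adjusted p = 0.017). Without non-migratory coastal replicate 6, a female, only 1 member was called, the gene described next: the difference was then -0.45 log2 (limma adjusted p = 0.064) for ENSFALG00000010236 and -0.59 log2 (adjusted p = 0.12) for ENSFALG00000009878. The call of the latter was also lost without the female non-migratory coastal replicate 5 (limma adjusted p = 0.075), after adjustment for month (0.059) and after adjustment for collection day (0.26).

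ENSFALG00000010645 was higher in females, which stood at 30.61, 30.67 and 30.78 log2, above the 7 coastal males (30.21 to 30.45). The inland males lay lowest, at 29.87 to 30.09 log2. The sex difference was 0.36 ± 0.06 log2 (SE, limma adjusted p = 0.0011). The females thus stood on the far side of the coastal males from the inland birds.

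A female was the lowest coastal bird in 10 of the 37 genes. Non-migratory coastal replicate 6 was the lowest in 7 (18.9%, against 9.3% of all genes). Migratory coastal replicate 4 was the lowest in 3 (8.11%, against 9.12%), and non-migratory coastal replicate 5 in none (against 11.6%). Whether females were the lowest more or less often than over all genes was not tested. When the rule was applied to the 16 males alone, 74 genes met it: the 37 members and 37 further genes in which at least 1 female lay at or below the highest inland male. In 18 of these further genes all 3 females lay at or below the highest inland male, and in 13 exactly 1 did. Low females are what kept these genes out of the list, so their sex difference is fixed by that choice and is not tested. Leaving out birds can only add genes, and how much of the rise from 37 to 74 comes from sex rather than from 3 fewer coastal birds was not tested.

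The hour of collection, tested as a slope, was called in none of the members (limma, smallest adjusted p = 0.44); 11 genes of the table were (0.0938%). At an unadjusted p under 0.05 there was 1 member, against 10% of all genes. A trend with the hour within an ecotype makes full separation harder, so this low count is partly set by the rule. The slopes of the 37 genes ran from -0.05 to 0.04 log2 per hour.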

How the data were processed

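RNA was sequenced from 19 birds. The authors deposited 1 table of 11727 genes whose values lie between 20.38 and 35.98, read as log2 and, per the name of the table, summed exon counts of protein-coding genes after TMM normalization. Trim Galore 0.3.1, TopHat2 and HTSeq are listed in the submitters' processing notes. Apart from the ENSFALG identifiers of the genes, the sources used here do not give the build or the annotation. The library kit in the labels does not mark strand, so genes that overlap on opposite strands cannot be separated. Except at the lowest ranks, the columns hold nearly the same values in different orders. Depth is unknown and no counting interval is given.

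Birds were grouped by the labels. limma 3.58.1 (R 4.3.3) modelled the 4 group means plus sex in all birds and genes, with mean-variance trend and robust settings (for the hour, also a slope). Two-sided p-values were adjusted over the 11727 genes and called under 0.05. Differences are sex-adjusted where a test is given; gaps are plain means. The fit was checked on simulated data with independent normal noise, for whether its estimates came near the changes put in. How often such changes were called is not given here. The members, tests and alternatives were chosen with earlier results of these data known. Genes were named by extremes: the widest and narrowest separation, lowest and highest level, largest spread, and smallest p-values; exceptions are marked. Each bird is a separate animal, numbered in accession order.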

Additional observations from a re-analysis of the deposited data

Results flagged for a closer look

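In 44 groups of 4 to 6 birds (11 named members in 4 groups), 2 values stood apart from the rest of the group by Dixon's criterion, which chance meets in about 1 of 20 such groups. ENSFALG00000004390 stood at 24.99 log2 in non-migratory coastal replicate 4, where the other 5 birds of the group lay between 25.66 and 26.05. This bird set the gene's empty interval, which was 2.02 log2 without it. ENSFALG00000004374 stood at 28.42 log2 in non-migratory coastal replicate 3, where the other 5 birds lay between 29.01 and 29.33.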

How the results depend on the processing

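The rule gave 37 to 45 genes when each of the 19 birds was left out in turn, 47 without the 2 birds whose status differs from their month, and 48 without both inland birds of 7 August (an alternative chosen after seeing the data); all of these lists held the 37 members, as they must. It gave 74 in males only. With columns shifted by the median of ratios (by at most 0.02 log2) it gave 37 genes, 36 of them members. The columns were already nearly alike above the lowest ranks, so this alternative could change little. The count near the floor in every inland bird was 3 at the lowest 2% and 5 at the lowest 10%. No member was called for the interaction in any of 31 alternatives (smallest adjusted p 0.20), for status over both ecotypes, in inland or in coastal birds in any of 31 each (smallest 0.28, 0.44 and 0.087), or for the hour in 30 (smallest 0.19). The gap was wider in migratory birds in 24 to 29 members leaving out each bird and in 26 to 30 in the other fits. In the main fit it was wider in 62.4% of the genes with the lower mean in inland birds. That share was not taken in the alternatives. The sex count was 1 to 4 leaving out each bird (3 in the main fit, beside 3.83% of all genes). ENSFALG00000010236 lost its call in 2 of 28 alternatives and ENSFALG00000009878 in 4. No paired analysis was made, since each bird is a separate animal. Depth, and with it counting error at the floor, is unknown.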
